A study of Mus musculus with 12 samples.

Results

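The genes described here encode the proteins of the cytosolic ribosome. They were chosen by name among the protein-coding genes: Rpl or Rps with a number and at most a short suffix, the stalk genes Rplp0, Rplp1 and Rplp2, and Rpsa. Of the 54532 genes measured in each tissue, 22046 were protein-coding, and 83 of these carried such a name, 51 of the large and 32 of the small subunit. A mean of at least 0.5 FPKM (fragments per kilobase of gene, scaled between the libraries of a tissue) was required, and 80 members passed in crypts and in tumors, 48 of the large and 32 of the small subunit. Rpl3l, Rpl10l and Rpl39l, copies of large subunit genes known from muscle and testis, missed the threshold with means of 0.00647, 0 and 0.0131 FPKM in crypts and 0.140, 0 and 0 FPKM in tumors. The members nearest to it on the inside were Rpl24, with means of 2.30 FPKM in crypts and 1.71 FPKM in tumors, and Rps10, with 3.18 and 4.36 FPKM.

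RNA-seq compared mice with and without ieCtnnb1, an intestinal enhancer of Ctnnb1, in 12 libraries of 4 groups, each library from a separate mouse. Crypts, the epithelial pits of the small intestine, came from 3 adult wild-type and 3 adult ieCtnnb1KO mice. Colon tumors came from 5-month-old mice, 3 APCmin/+ and 3 APCmin/+;ieCtnnb1KO, so that both tumor groups carry the mutant Apc allele and neither crypt group does. The deletion is homozygous and present in all cells of the C57BL/6 mice from birth, so its effects in the epithelium and elsewhere cannot be told apart, and tissues were compared only through the difference within each.

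Ribosomes translate messenger RNA into protein, with a small subunit that reads the message and a large subunit that joins amino acids. Each ribosome needs its proteins in near-equal numbers, so cells make their messages at high and balanced levels. Many of these messages begin with a run of pyrimidines, the terminal oligopyrimidine motif, through which the growth kinase mTORC1 controls their translation, and Wnt signaling through Myc is known to raise ribosome production in intestinal epithelium.

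Ctnnb1, which encodes the Wnt effector β-catenin and is the target of the deleted enhancer, served as the check of the labels. Its FPKM was 121, 134 and 123 in control crypts and 102, 104 and 105 in knockout crypts. Each knockout crypt library was below each control library, a log2 difference of -0.28 (standard error 0.12, adjusted p = 0.849, exact permutation p = 0.1, the smallest that 3 against 3 allow). Colon tumors gave 299, 363 and 358 FPKM in controls and 279, 248 and 250 FPKM in knockouts. Here too the groups did not overlap, with a log2 difference of -0.39 (standard error 0.13, adjusted p = 0.303, exact permutation p = 0.1). Leaving out any library or changing the scaling kept the sign, and under the scalings the difference ran from -0.12 to -0.41 in crypts and from -0.43 to -0.57 in tumors.

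The ribosomal protein genes were among the most abundant messages of each library. Their median mean level was 206 FPKM in crypts, against 5.17 FPKM over all 14176 tested genes, and 229 FPKM in tumors, against 5.81 FPKM over all 16743 tested genes. Rplp1, a protein of the stalk that recruits elongation factors, was the highest member, with means of 1655 FPKM in crypts and 1826 FPKM in tumors. Rplp0, the base of this stalk, came next with 950 and 1194 FPKM, followed in crypts by Rps3a1, a small subunit protein, with 941 FPKM and in tumors by Rpl41, the shortest protein, with 846 FPKM. At the low end, above only Rpl24 and Rps10, were the large subunit genes Rpl13a in crypts, with a mean of 9.79 FPKM, and Rpl21 in tumors, with 18.5 FPKM. The low levels of Rps10 and Rpl21 are uncertain, since more fragments were assigned to near-identical copies than to these genes. Copies were counted by name only. No copy of that kind was found for Rpl24, and the only one of Rpl13a had 0 FPKM, so whether their low levels are real was not tested. The order of the members was nearly the same in the tissues, with a Spearman correlation of their means of 0.97 (n = 80 genes that share gene length, read assignment and the libraries of each tissue, and so are not independent).

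**Figure D1:**
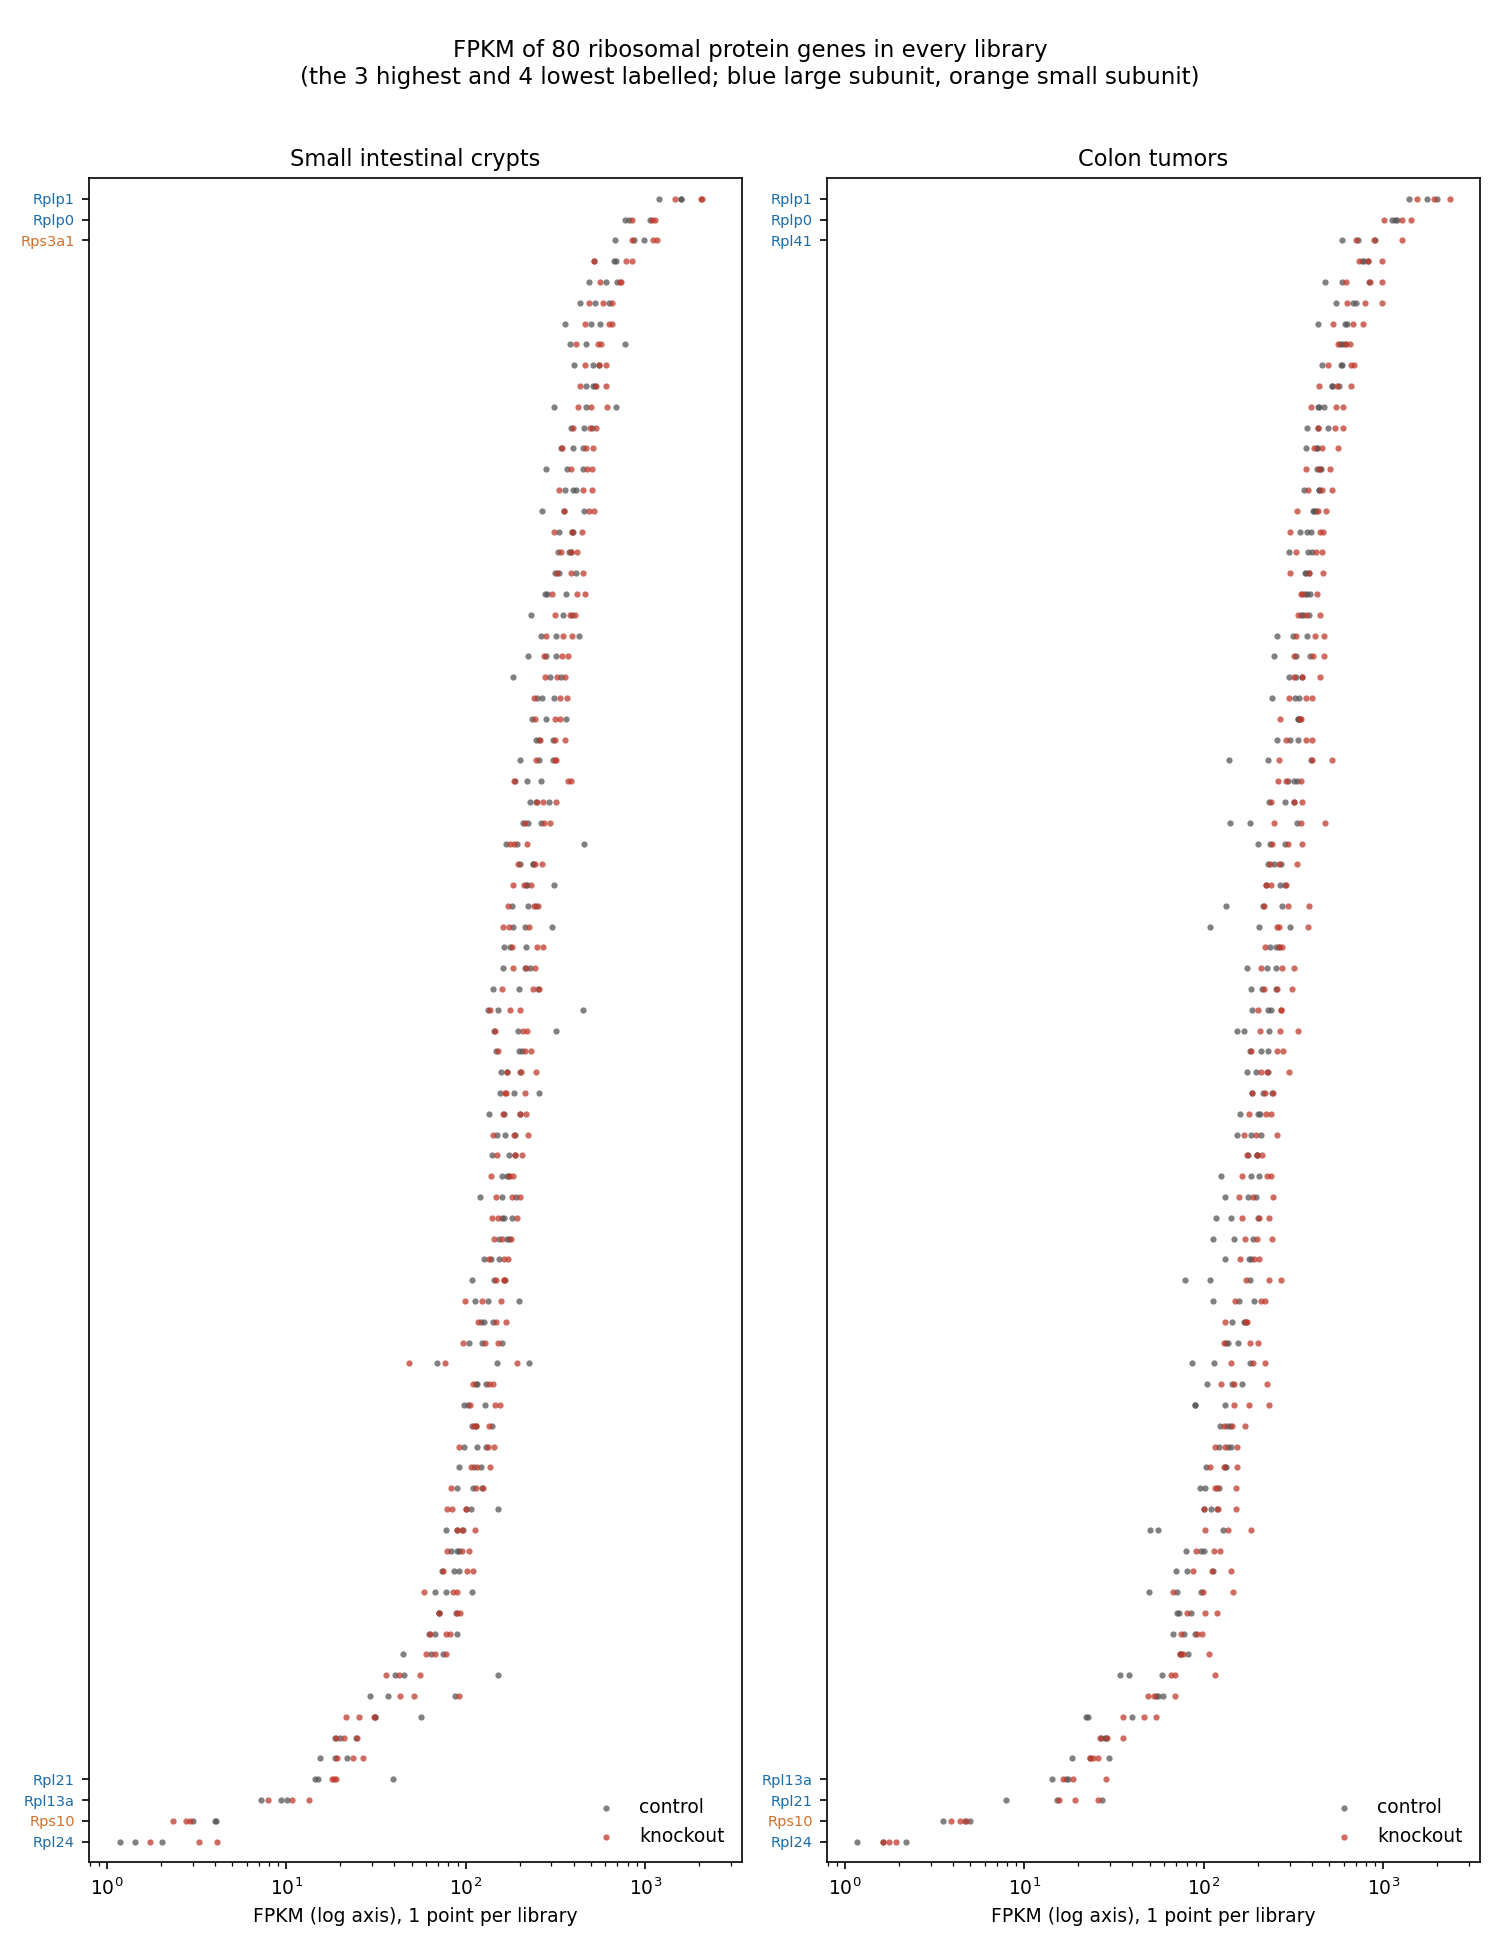
FPKM of the 80 ribosomal protein genes in each of the 12 libraries, on a log axis, with the highest and lowest members labelled. Rplp1 is the highest member in each tissue, and Rpl24 and Rps10 are the lowest, although most fragments of Rps10 and its copies (96.4% in crypts, 94.5% in tumors) are counted on the copies.

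Annotated starts of genes were searched for the pyrimidine run that gives the motif its name. The 30 bases around the annotated start in RefSeq (GRCm38.p6) were read, 15 before and 15 after it, and a run was taken as a C followed by at least 4 C or T, beginning within 3 bases of the start. Of the 80 members, 60 were matched to an annotated start and 25 of these (41.7%) carried a run, 15 of 36 large and 10 of 24 small subunit genes, where 3651 of 27025 genes (13.5%) did. Members with a run had a median log2 difference of 0.08 in crypts (15 of 25 higher in knockouts) and 0.25 in tumors (23 of 25), and matched members without a run had 0.13 in crypts (28 of 35) and 0.17 in tumors (32 of 35). The sequences below, with the run in capitals, are those of members that stand out in the comparisons or as regulators, with Eef1a1, an elongation factor message of the same class, for comparison. A match describes the sequence and is not a site shown to act, Rpl35a has 2 other annotated starts without a run, and Rps27a and Rpl30 were not matched. The lack of a run by this rule does not show that the message lacks one, since the annotated start can be off. In Rps26, for example, counted as without a run, one begins just beyond the 3 bases searched.
Rps27 (chr3:90213634-90213663, minus strand): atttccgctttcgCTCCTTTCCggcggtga
Rpl35a (chr16:33056467-33056496, plus strand): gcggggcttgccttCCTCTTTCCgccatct
Rps10 (chr17:27635230-27635259, minus strand): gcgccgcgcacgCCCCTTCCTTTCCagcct
Rps6 (chr4:86857353-86857382, minus strand): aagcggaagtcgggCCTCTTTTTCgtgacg
Rpl38 (chr11:114668565-114668594, plus strand): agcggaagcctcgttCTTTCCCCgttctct
Eef1a1 (chr9:78481710-78481739, minus strand): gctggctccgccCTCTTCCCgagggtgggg
Rps28 (chr17:33824548-33824577, minus strand, no run): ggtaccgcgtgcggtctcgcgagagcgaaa
Rpl24 (chr16:55966260-55966289, plus strand, no run): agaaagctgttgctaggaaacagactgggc

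In small intestinal crypts, most ribosomal protein genes of both subunits were slightly higher in knockouts than in controls, but the libraries of the groups overlapped. The difference came mostly from knockout library 2, the highest for 56 of the 80 members, while knockout library 3 and control library 3 were the lowest for 26 and 29. Control library 2 was the lowest for 23, and control library 3 was also the highest for 20. No member passed the test, and the small shift of the small subunit changed sign when knockout library 2 was left out. In such bulk samples, fewer cells of a type and less RNA per cell cannot be told apart. Summed FPKM of the members was 21739.8, 18212 and 20494 in control crypts and 23154.5, 24989.8 and 18051 in knockout crypts. Knockout library 2 had the highest sum and knockout library 3 the lowest, so the groups overlapped, with means of 20148 ± 1789 and 22065 ± 3595 FPKM (SD, n = 3). These sums held 3.97%, 2.98% and 3.15% of the fragments in controls and 3.99%, 4.42% and 2.90% in knockouts. The ratio of large to small subunit FPKM was 1.32, 1.26 and 1.41 in controls and 1.38, 1.39 and 1.36 in knockouts, also overlapping.

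Large subunit genes were higher in knockout crypts for 36 of 48 members, with a median log2 difference of 0.14 (quartiles 0.02 and 0.21), and small subunit genes for 23 of 32, with a median of 0.08 (quartiles -0.02 and 0.17). Over all tested genes, 7478 of 14176 were higher and the median was 0.01, which the scaling of the deposited values holds near 0. After adjustment over all tested genes with limma, 0 of the 80 members and 0% of the background passed, while before adjustment 494 tested genes upward and 335 downward had a p under 0.05. The smallest adjusted p of a member was 0.844, and 0.527 or more in each other setting run. At an unadjusted p under 0.05, 1 member was higher (Rpl24), against 3.48% of all tested genes, and 1 was lower (Rps10), against 2.36%. Groups that did not overlap were found for 0 members upward, against 6.79% of tested genes, and for 2 downward (Rps10 and Rpl35a), against 5.15%. Shares at or under the background are not a result about the members.

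Single libraries moved these crypt medians strongly. For the large subunit the median was 0.07 without control library 2, 0.03 without knockout library 2 and 0.28 without knockout library 3, and with each other library left out it lay from 0.10 to 0.20. For the small subunit it was 0.15 without control library 1, 0.03 without control library 2, 0.04 without knockout library 1, -0.01 without knockout library 2 (15 of 32 higher) and 0.20 without knockout library 3. With each library rescaled to the same summed FPKM, the crypt median over all tested genes went to 0.14 from 0.01. Relative to that shift, the large subunit stood 0.14 and the small subunit 0.09 above all genes, and under quantile normalization 0.03 and 0.00 above them, while no scaling tried reversed the sign of a subunit median. Under the first of these 43 of 48 large and 26 of 32 small subunit genes were higher, at absolute medians of 0.29 and 0.23, and under the second 29 and 17.

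**Figure D2:**
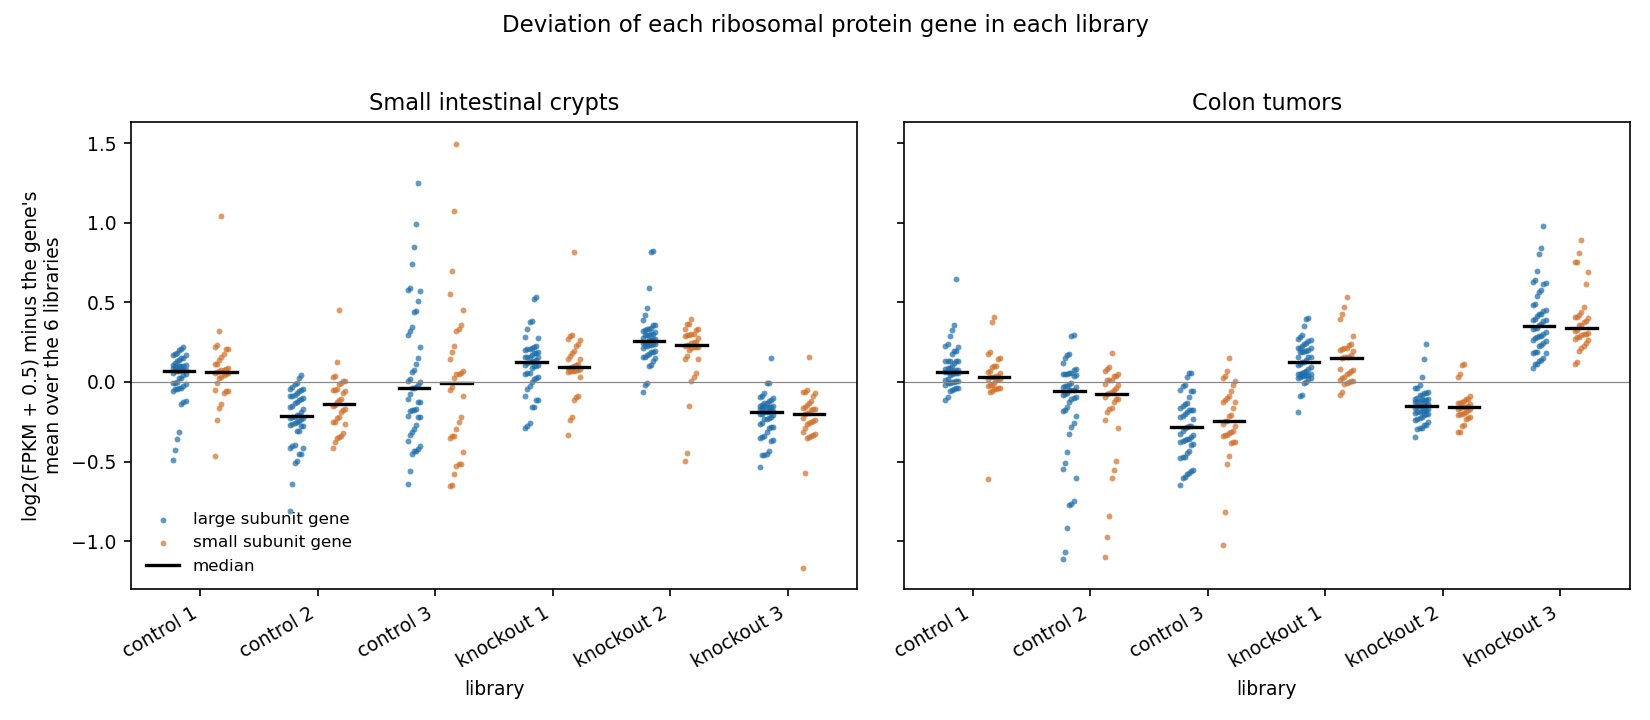
Deviation of each ribosomal protein gene in each library from its mean over the 6 libraries of the tissue. Knockout library 2 is the highest for 56 of 80 members in crypts and knockout library 3 for 75 of 80 in tumors.

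Among large subunit members of the crypts, the smallest unadjusted p belonged to Rpl24, which forms a bridge to the small subunit. Rpl24 measured 1.44, 2.03 and 1.18 FPKM in control crypts and 3.28, 4.11 and 1.73 FPKM in knockout crypts. Knockout libraries 1 and 2 were above all controls, but knockout library 3 lay between control values. Its log2 difference was 0.75 (standard error 0.30, adjusted p = 0.845, exact permutation p = 0.2), and leaving out 1 library gave 0.52 to 1.05. At so low a level, and with copies under other names not counted, the values of Rpl24 are uncertain. Rpl22l1, a copy of Rpl22 with its own effects on splicing, measured 18.6, 15.4 and 21.6 FPKM in controls and 26.8, 23.4 and 19.2 FPKM in knockouts. Only knockout library 3 fell within the range of the controls, for a log2 difference of 0.31 (standard error 0.18, adjusted p = 0.881), which was 0.19 without control library 2 and 0.20 without knockout library 1.

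Lower in knockout crypts was Rpl35a, a gene of Diamond-Blackfan anemia, with 31.2, 31.1 and 56.5 FPKM in controls and 25.5, 30.9 and 21.4 FPKM in knockouts. The groups did not overlap, by a narrow margin between control library 2 and knockout library 2, and control library 3 stood far above all others. Its log2 difference of -0.56 (standard error 0.26, adjusted p = 0.857, exact permutation p = 0.1) was -0.27 without control library 3. Rpl37, a short zinc-binding protein, measured 107, 100 and 151 FPKM in controls and 83.5, 101 and 78.5 FPKM in knockouts. Knockout library 2 was level with control library 2, and control library 3 was highest. For Rpl37 the log2 difference was -0.43 (standard error 0.19, adjusted p = 0.856, exact permutation p = 0.2), and -0.25 without control library 3. The third lower gene, Rpl23, known to bind Mdm2, measured 133, 112 and 198 FPKM in controls and 123, 157 and 98.5 FPKM in knockouts. Its values overlapped widely, and the log2 difference of -0.21 (standard error 0.26) became 0.03 without control library 3, -0.38 without control library 2 or knockout library 2, and -0.04 without knockout library 3.

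Of the small subunit, Rps10, which sits near the entry of the message, was lower in each knockout crypt library than in any control. It measured 4.02, 2.9996 and 4.06 FPKM in controls and 2.90, 2.76 and 2.34 FPKM in knockouts. Control library 2 and knockout library 1 were nearly equal, and the log2 difference was -0.40 (standard error 0.16, adjusted p = 0.844, exact permutation p = 0.1). With the fragments of near-identical copies added, which hold 96.4% of the total, it was 0.36, so the direction of Rps10 is uncertain. Rps21, a short small subunit protein, measured 213, 182 and 300 FPKM in controls and 173, 226 and 161 FPKM in knockouts. Control library 3 was highest and the rest overlapped, so that the log2 difference of -0.29 (standard error 0.23) was -0.09 without control library 3, -0.45 without control library 2, -0.44 without knockout library 2 and -0.19 without knockout library 3. Rps23, part of the decoding center, measured 218, 217 and 309 FPKM in controls and 212, 231 and 184 FPKM in knockouts. Here again control library 3 alone was high, and the log2 difference of -0.23 (standard error 0.19) was -0.06 without it and -0.14 without knockout library 3.

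Among the higher small subunit members in crypts were Rpsa and Rps20. Rpsa, which doubles as a laminin receptor and lies on the chromosome of Ctnnb1, measured 456, 355 and 264 FPKM in controls and 484, 520 and 351 FPKM in knockouts. Control library 3 was lowest, and knockout library 3 lay among the controls. Rpsa had a log2 difference of 0.35 (standard error 0.26, adjusted p = 0.896, exact permutation p = 0.3), or 0.15 without control library 3 and 0.54 without control library 1. Rps20, a protein of the head of the subunit, measured 127, 103 and 98.0 FPKM in controls and 145, 155 and 105 FPKM in knockouts. Knockout library 3 was between controls, and the log2 difference was 0.29 (standard error 0.19), or 0.18 without knockout library 2 and 0.46 without knockout library 3.

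The stalk genes split in crypts. Rplp1 measured 1572, 1189 and 1582 FPKM in controls and 2047, 2081 and 1458 FPKM in knockouts. Knockout library 3 lay between controls and the other knockouts above them, a log2 difference of 0.36 (standard error 0.25, adjusted p = 0.896), or 0.22 without control library 2. Rplp0 measured 1060, 813 and 766 FPKM in controls and 1086, 1133 and 843 FPKM in knockouts. Again knockout library 3 overlapped the controls, and the log2 difference of 0.22 (standard error 0.22, adjusted p = 0.917) was 0.12 without control library 3, 0.14 without knockout library 2, 0.36 without control library 1 and 0.35 without knockout library 3. Rplp2, the partner of Rplp1 in the stalk, measured 182, 159 and 164 FPKM in controls and 151, 193 and 139 FPKM in knockouts. Its knockouts were the highest and the lowest libraries at once, and the log2 difference of -0.07 (standard error 0.16) was above 0 under rescaling to summed FPKM (0.07), and was -0.02 without control library 1, -0.11 without control library 2, -0.03 without knockout library 1, -0.21 without knockout library 2 and 0.02 without knockout library 3.

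In colon tumors, most ribosomal protein genes of both subunits were higher in knockouts in the values as deposited, and how many were depended on the scaling. Single libraries stood out again, since knockout library 3 was the highest for 75 of the 80 members and control library 3 the lowest for 41. Knockout library 2 was near the controls, and no member passed the test. Summed FPKM of the members was 24049, 21768 and 19526 in control tumors and 25372, 20509.9 and 29985 in knockout tumors. Knockout libraries 1 and 3 were above all controls and knockout library 2 was below 2 of them, with means of 21781 ± 2262 and 25289 ± 4738 FPKM (SD, n = 3). Members held 4.002%, 3.71% and 3.36% of the fragments in controls and 4.13%, 3.37% and 4.67% in knockouts. The ratio of large to small subunit FPKM was 1.56, 1.57 and 1.48 in controls and 1.503, 1.52 and 1.52 in knockouts, overlapping.

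For large subunit genes, 43 of 48 were higher in knockout tumors, with a median log2 difference of 0.21 (quartiles 0.08 and 0.36), and for small subunit genes 28 of 32, with a median of 0.17 (quartiles 0.11 and 0.30). All tested genes had a median of 0.01, again held near 0 by the deposited scaling, with 8586 of 16743 higher. With limma adjusted over all tested genes, 0 of 80 members passed, against 0% of the background, while before adjustment 1417 tested genes upward and 1004 downward had a p under 0.05. The smallest adjusted p of a member was 0.269, and 0.154 to 0.595 over the settings run. An unadjusted p under 0.05 was found for 5 members upward (Rps27a, Rpl30, Rps27, Rpl35a and Rps28), against 8.46% of all tested genes, and for 0 downward, against 6%. Groups did not overlap for 2 members upward (Rps27a and Rpl30), against 11.4% of tested genes, and for 0 downward, against 10.6%. As in crypts, shares at or under the background are not a result about the members.

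Leaving out libraries moved the tumor medians without a change of sign. The large subunit had 0.10 without control library 3, 0.37 without knockout library 2 and 0.10 without knockout library 3, and the small subunit had 0.32 without knockout library 2 and 0.07 without knockout library 3. Rescaling to summed FPKM moved the median of all tested genes to -0.09, and relative to that the large subunit stood 0.19 and the small subunit 0.15 above all genes. Under that rescaling 34 of 48 large and 24 of 32 small subunit genes were higher, and under quantile normalization 26 and 16. Quantile normalization gave medians of 0.04 and 0.01, and the sign of both subunit medians was kept under each scaling tried.

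The member of the small subunit with the smallest p in tumors was Rps27a, made as a fusion of ubiquitin with a ribosomal protein. It measured 88.9, 89.3 and 131 FPKM in control tumors and 179, 147 and 230 FPKM in knockout tumors. Each knockout library was above each control library. Its log2 difference was 0.84 (standard error 0.22, adjusted p = 0.269, exact permutation p = 0.1), and 0.68 to 1.03 with 1 library left out. Crypts gave the other direction for Rps27a, with 224, 149 and 69.2 FPKM in controls and 192, 76.8 and 48.1 FPKM in knockouts. Values differed several-fold within each crypt group and overlapped, and the log2 difference of -0.56 (standard error 0.59) was -0.18 without control library 1, -1.03 without control library 3, -1.11 without knockout library 1 and -0.12 without knockout library 3.

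Rps27, a zinc finger protein of the small subunit also called metallopanstimulin, measured 180, 109 and 78.1 FPKM in control tumors and 231, 172 and 269 FPKM in knockout tumors. Only knockout library 2 overlapped the controls, just below control library 1. The log2 difference of Rps27 was 0.93 (standard error 0.32, adjusted p = 0.308, exact permutation p = 0.2), and 0.65 to 1.25 with 1 library left out. Rps28, among the shortest proteins of the small subunit, measured 128, 49.8 and 55.6 FPKM in control tumors and 136, 101 and 183 FPKM in knockout tumors. Control library 1 was above knockout library 2 and the other controls were low. For Rps28 the log2 difference was 0.94 (standard error 0.39, adjusted p = 0.342, exact permutation p = 0.2), and 0.69 to 1.36 with 1 library left out. Rps4x and Rps10 of the small subunit were level in tumors, each at -0.01 and so without a stable sign, since without knockout library 2 each was above 0.

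Of the large subunit in tumors, Rpl30, a regulator of its own splicing in yeast, measured 58.1, 34.2 and 38.3 FPKM in controls and 65.4, 69.0 and 116 FPKM in knockouts. The groups did not overlap and knockout library 3 was highest. Its log2 difference was 0.92 (standard error 0.28, adjusted p = 0.295, exact permutation p = 0.1), and 0.66 to 1.14 with 1 library left out. Rpl35a measured 39.8, 22.7 and 22.0 FPKM in control tumors and 46.1, 35.6 and 54.1 FPKM in knockout tumors. Control library 1 exceeded knockout library 2, and the log2 difference was 0.71 (standard error 0.26, adjusted p = 0.320, exact permutation p = 0.2). Rpl37a, a short zinc-binding protein like Rpl37, measured 231, 153 and 168 FPKM in controls and 264, 207 and 335 FPKM in knockouts. The overlap was the same, between control library 1 and knockout library 2, and the log2 difference was 0.54 (standard error 0.23, adjusted p = 0.346, exact permutation p = 0.2).

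Lower or level in knockout tumors were Rpl3, a protein of the peptide-joining center, and Rpl26, known to bind the p53 message. Rpl3 measured 336, 340 and 334 FPKM in controls and 342, 267 and 347 FPKM in knockouts. Knockout library 2 alone was low, and the log2 difference of -0.09 (standard error 0.14) was 0.03 without it and -0.15 without knockout library 1 and -0.16 without knockout library 3. Rpl26 measured 294, 330 and 316 FPKM in controls and 287, 259 and 346 FPKM in knockouts. Its knockouts spanned the controls, with a log2 difference of -0.09 (standard error 0.14) that was 0.01 without knockout library 2, -0.13 without control library 1, -0.05 without control library 2 and -0.20 without knockout library 3. Under the scalings Rpl3 ran from -0.13 to -0.28 and Rpl26 from -0.13 to -0.29.

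The stalk genes of the tumors followed the same libraries. Rplp1 measured 1753, 1999 and 1398 FPKM in controls and 1907, 1548 and 2355 FPKM in knockouts. Knockout library 3 was highest and the rest overlapped, a log2 difference of 0.17 (standard error 0.26) that was 0.03 without control library 3, 0.29 without control library 2, 0.32 without knockout library 2 and 0.02 without knockout library 3. Rplp0 measured 1194, 1163 and 1113 FPKM in controls and 1268, 1005 and 1419 FPKM in knockouts. Its knockouts lay on both sides of the controls, and the log2 difference of 0.08 (standard error 0.20) was -0.03 to -0.16 under all scalings but that by fragments, and was 0.05 without control library 3 or knockout library 1, 0.21 without knockout library 2 and -0.03 without knockout library 3. Rplp2 measured 203, 183 and 125 FPKM in controls and 226, 162 and 238 FPKM in knockouts. Knockout library 2 was below 2 controls, and the log2 difference was 0.30 (standard error 0.23), or 0.09 without control library 3, 0.47 without knockout library 2 and 0.20 without knockout library 3.

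Members were also grouped by the length of the coding sequence. The 10 members of up to 300 bases, which are Rpl37, Rpl37a, Rpl38, Rpl39, Rpl41, Rps21, Rps27, Rps27l, Rps28 and Rps29, were mostly lower in knockout crypts and all higher in knockout tumors in the values as deposited. In crypts this rested on control library 3 and in tumors on several libraries, with control library 2 low and knockout library 3 high. The median deviation of these short members was -0.09, -0.22 and 0.56 in control crypts and -0.14, 0.12 and -0.26 in knockout crypts. Control library 3 stood alone, as the highest library for 9 of the 10, and the groups overlapped. Their median log2 difference in crypts was -0.22 (2 higher, 8 lower), but 0.09 without control library 3, -0.38 without control library 1 and -0.36 without control library 2. Under the scalings it stayed below 0, but at -0.07 and -0.06 with 5 of 10 higher when rescaled to summed FPKM of all or of other genes. In tumors the median deviation was 0.18, -0.66 and -0.38 in controls and 0.32, -0.09 and 0.67 in knockouts. Knockout library 3 was the highest for all 10, knockout library 2 was below control library 1, and the median log2 difference was 0.56, with 0.34 without control library 2, 0.82 without control library 1 and above 0 under each scaling tried.

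The 47 members of 300 to 600 bases had a median log2 difference of 0.12 in crypts (36 higher; 0.04 without control library 2, 0.08 without knockout library 1, 0.02 without knockout library 2, 0.25 without knockout library 3, and 0.00 under quantile normalization) and 0.22 in tumors (42 higher; 0.13 without control library 3, 0.37 without knockout library 2, 0.09 without knockout library 3, and 0.04 with 28 higher under quantile normalization). Above 600 bases, 21 of 23 members were higher in knockout crypts, with a median of 0.20 (0.30 without control library 1, 0.13 without control library 2, 0.09 without control library 3, 0.07 without knockout library 2 and 0.34 without knockout library 3). In tumors 19 of these 23 were higher, with a median of 0.11, but it was -0.07 with 5 higher under quantile normalization, 0.00 with 12 higher when rescaled to summed FPKM, 0.05 without control library 3, 0.21 without knockout library 2 and -0.00 without knockout library 3. Over the 80 members, coding length had a Spearman correlation of 0.46 with the log2 difference in crypts and -0.54 in tumors, a description of genes that share libraries and are not independent. Without the short members, the subunit medians were 0.15 and 0.12 in crypts and 0.17 and 0.17 in tumors.

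Rpl38, a short protein tied to translation of Hox messages, gives an example with 150, 133 and 447 FPKM in control crypts and 177, 201.2 and 136 FPKM in knockout crypts. Control library 3 was far above the rest, which overlapped, and the log2 difference of -0.29 (standard error 0.45) was 0.26 without control library 3, -0.52 without control library 1, -0.62 without control library 2 and -0.14 without knockout library 3. Rps28 behaved alike in crypts, with 45.3, 40.1 and 152 FPKM in controls and 42.4, 55.7 and 35.8 FPKM in knockouts. Outside control library 3 its values overlapped, and the log2 difference of -0.56 (standard error 0.49) was 0.04 without that library and -0.91 without control library 2. Rps29, another short zinc-binding protein, measured 194, 168 and 458 FPKM in control crypts and 186, 218 and 175 FPKM in knockout crypts. The same library was high, and the log2 difference of -0.35 (standard error 0.37) was 0.10 without it and -0.63 without control library 2. Short genes outside the family also leaned upward in tumors. Other protein-coding genes of under 1000 bases had a median log2 difference of 0.26 there (328 of 456 higher) and 0.03 in crypts (200 of 386 higher), and genes above 4000 bases had -0.04 and -0.00. Whether fragment length, RNA integrity or transcription lies behind the dependence on length was not tested.

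**Figure D3:**
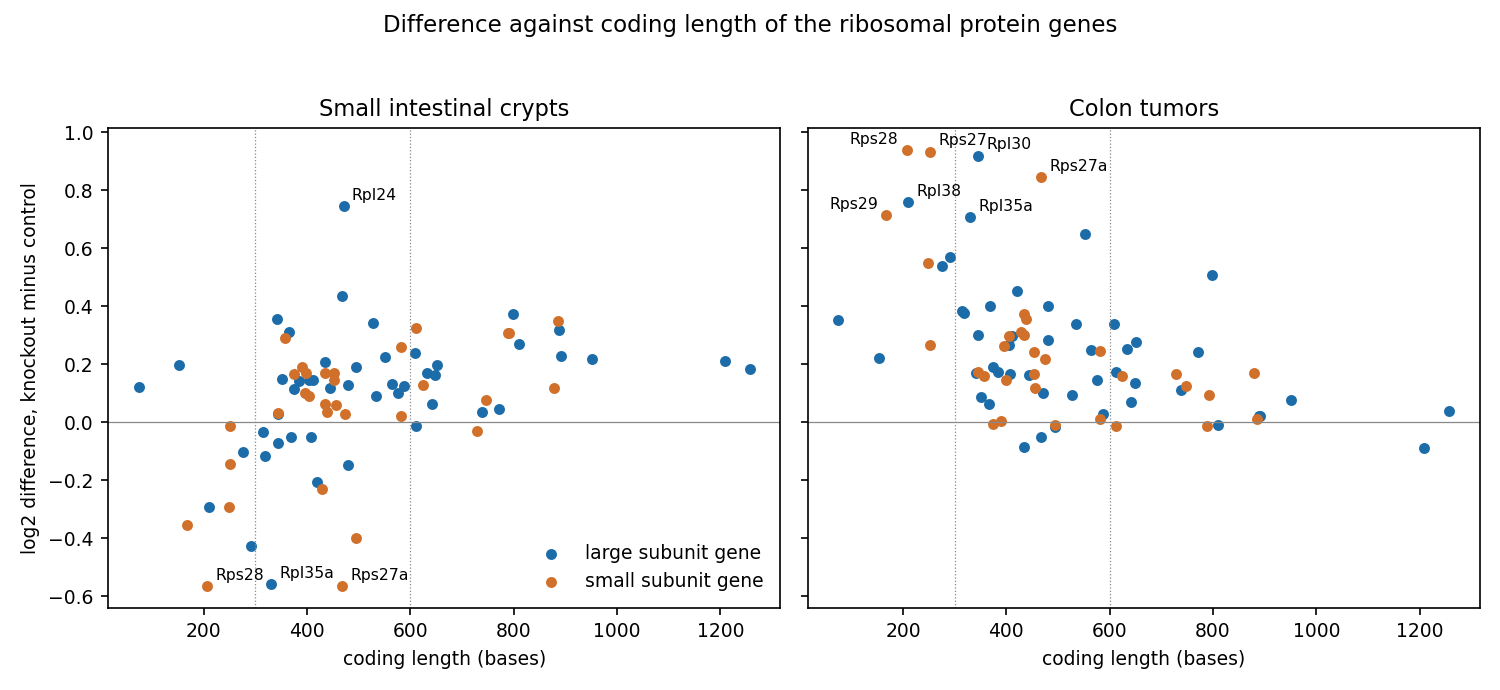
Log2 difference of each ribosomal protein gene against the length of its coding sequence, in crypts and in tumors, with dotted lines at 300 and 600 bases. The median of the 10 members of up to 300 bases is -0.22 in crypts, where it is 0.09 without control library 3, and 0.56 in tumors, and neither sign changes under the scalings tried.

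Between the tissues, the knockout difference of a member was tested as crypts minus tumors, over 13370 genes tested in both. As deposited, most members were higher in both tissues, 51 of 80 (31 large and 20 small), while 8 were higher in crypts only, 20 in tumors only, and Rps10 was lower in both, by -0.40 and -0.01, though with the fragments of its copies added it was at 0.36 and 0.01. Members with the largest difference in tumors tended to be lower in crypts, with a Spearman correlation of -0.63 over the 80 members, a description across genes that are not independent, although the tissues share no library. Coding length went with the difference in opposite directions, at 0.46 in crypts and -0.54 in tumors. In crypts the median of the short members was 0.09 without control library 3. The part of length in this correlation was not tested. As deposited, the crypt minus tumor difference had a median of -0.08 for the large and -0.14 for the small subunit, against 0.01 over all genes. This order of the tissues depends on library and scaling: rescaled to summed FPKM, the subunit medians were 0.29 and 0.23 in crypts but 0.10 and 0.06 in tumors, and without knockout library 3 of the tumors the large subunit had 0.10 there, below its 0.14 in crypts. With limma, 0 of the 80 members passed adjustment for this difference, against 0% of all genes, while before adjustment 491 genes above and 642 below had a p under 0.05. Of the members, 0 were above at an unadjusted p under 0.05, against 3.67% of genes, and 4 were below (Rpl35a, Rpl37, Rpl30 and Rps27), against 4.8%, so the share is near the background and not a result about the members. Rpl35a had the smallest p, with a tested difference of -1.27 (standard error 0.40, adjusted p = 0.528), and over the settings tried the smallest adjusted p of any member ran from 0.261 to 0.879. Next by p came Rpl37 with -0.998 (standard error 0.37, adjusted p = 0.557), Rpl30 with -0.89 (standard error 0.35, adjusted p = 0.567) and Rps27 with -1.08 (standard error 0.48, adjusted p = 0.583). Larger but more variable were the differences of Rps28, -1.504 (standard error 0.69, adjusted p = 0.590), and Rps27a, -1.41 (standard error 0.70, adjusted p = 0.617). Of these, Rps27 in crypts had a log2 difference of -0.15 that was -0.41 without control library 1, 0.17 without control library 3, -0.22 without knockout library 1, 0.04 without knockout library 2, -0.26 without knockout library 3, and 0.00 or 0.02 under rescaling to summed FPKM.

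**Figure D4:**
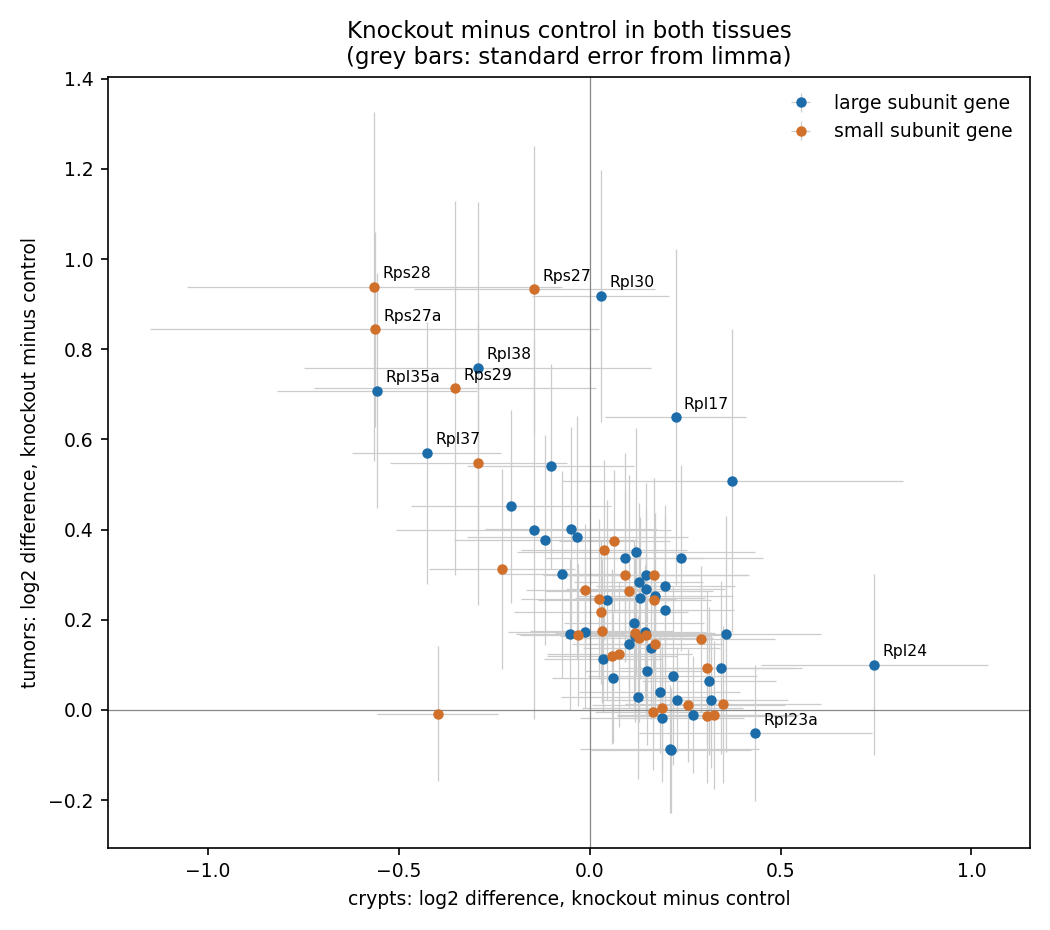
Log2 difference of each ribosomal protein gene in crypts against that in tumors, with standard errors. Rps28 lies farthest from equal differences, with -0.56 in crypts, where it is 0.04 without control library 3, and 0.94 in tumors, and keeps these signs under the scalings tried.

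Genes with roles in p53 control, growth signaling and anemia were also named. Rpl5, which with Rpl11 and the smallest ribosomal RNA holds Mdm2, measured 200, 164 and 134 FPKM in control crypts and 201.5, 218 and 162 FPKM in knockout crypts. Knockout library 3 lay among the controls and control library 3 was lowest, a log2 difference of 0.23 (standard error 0.20), or 0.08 without control library 3, 0.14 without knockout library 2, 0.37 without control library 1 and 0.35 without knockout library 3. Tumors gave 198, 198 and 175 FPKM for Rpl5 in controls and 199, 173 and 210 FPKM in knockouts. These values overlapped, with a log2 difference of 0.02 (standard error 0.12) that ran from -0.04 without control library 3 or knockout library 3 to 0.10 without knockout library 2, and was below 0 under the scalings. Rps6, the substrate of the S6 kinases, measured 504, 457 and 386 FPKM in control crypts and 492, 534 and 398 FPKM in knockout crypts. The groups overlapped throughout, and the log2 difference of 0.08 (standard error 0.19) was 0.17 without control library 1, -0.03 without control library 3, 0.05 without knockout library 1, -0.01 without knockout library 2 and 0.20 without knockout library 3. Rps19, the gene most often mutated in Diamond-Blackfan anemia, measured 85.1, 70.8 and 73.0 FPKM in control tumors and 102, 80.3 and 118 FPKM in knockout tumors. Knockout library 2 was below control library 1 and the other knockouts were above all controls, a log2 difference of 0.37 (standard error 0.16, adjusted p = 0.347, exact permutation p = 0.2), or 0.25 without knockout library 3.

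Some ribosomal proteins have paralogs, whose balance was not tested. Beside the 0.31 of Rpl22l1 in crypts, Rpl22, its usual form, had a log2 difference of 0.14, with -0.00 under quantile normalization, 0.25 without control library 1, 0.09 without control library 2 or 3, 0.07 without knockout library 2 and 0.26 without knockout library 3. In tumors Rpl22 had 0.17 (0.28 without control library 1, 0.07 without control library 3, 0.29 without knockout library 2, 0.09 without knockout library 3) and Rpl22l1 had 0.06, which was below 0 under 4 of the scalings, 0.23 without control library 2, -0.10 without control library 3, 0.10 without knockout library 2 and 0.03 without knockout library 3. Rpl7, which binds RNA of the large subunit, had 0.27 in crypts (0.13 without control library 3) and -0.01 in tumors, and its copy Rpl7l1 had 0.03 and 0.11, with signs that varied with the library left out for all but Rpl7 in crypts. Rps27l, a p53 target and copy of Rps27, had -0.01 in crypts, with -0.10 without knockout library 2 and 0.10 without control library 3, and so no stable sign. In tumors Rps27l had 0.27 (standard error 0.15; 0.14 without knockout library 3, 0.16 rescaled to summed FPKM and 0.07 under quantile normalization), where Rps27 had 0.93. Under the same 2 scalings Rpl22 in tumors had 0.06 and 0.02. Rpl3l, Rpl10l and Rpl39l stayed near 0 FPKM in all groups, so that Rpl3, Rpl10 and Rpl39 made up their pairs. Of 80 members, 7 share chromosome 9 with Ctnnb1 (Rpl14, Rpl29, Rpl4, Rplp1, Rps25, Rps27l and Rpsa). Rpl14, a large subunit protein, measured 307, 245 and 255 FPKM in control crypts and 313, 358 and 258 FPKM in knockout crypts. Knockout library 3 was among the controls, and the log2 difference of Rpl14 was 0.20 (standard error 0.18), or 0.30 without control library 1, 0.13 without control library 2, 0.09 without knockout library 2 and 0.32 without knockout library 3.

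Fragments of ribosomal protein messages can be assigned to near-identical copies, which makes single values uncertain. Copies with the name of a member were found for 60 of the 80 members, 296 copies in all, and 3 members had more fragments on their copies than on themselves. Copies under other names were not counted. Rps10 had 96.4% of these fragments on copies in crypts and 94.5% in tumors, Rpl17 73.1% and 58.9%, and Rpl21 54.2% and 54.4%. Adding the fragments of copies turned the difference of Rps10 in crypts from -0.40 to 0.36, and that of Rpl17 in tumors, a protein near the exit tunnel, from 0.65 to 0.12. That starting value of Rpl17 was itself 0.99 without control library 1 and 0.26 without control library 2. Rpl21 in crypts went from -0.15, which was -0.36 without control library 1, -0.39 without control library 2 and 0.31 without control library 3, to 0.03. Rps12, a small subunit protein with 45.6% on copies in crypts, went there to 0.34 from 0.10, which was 0.17 without control library 1, 0.19 without control library 2, -0.05 without control library 3, 0.04 without knockout library 1, -0.02 without knockout library 2 and 0.29 without knockout library 3. Rpl30 had 12.4% on copies in tumors, and its difference there went from 0.92 to 0.63. Rpl30-ps10, a copy listed apart and looked at after its values had been seen, measured 100, 112 and 86.9 FPKM in control tumors and 76.5, 28.4 and 10.3 FPKM in knockout tumors. Each knockout was below each control, a log2 difference of -1.79 (standard error 0.64, adjusted p = 0.319), or -1.08 without knockout library 3. Over the 60 members with copies, the median share of fragments on copies was 1.32% in crypts and 0.788% in tumors. With copies added, the subunit medians over all 80 members were 0.13 and 0.10 in crypts and 0.18 and 0.17 in tumors. Exons of 38 members overlap another gene, and for Rpl35 (66.2%, Wdr38) and Rpl23a (62.3%, Tlcd1) more than 50% of the exon bases do, on the opposite strand. Whether counting used the strand is not stated, so these values are uncertain too, although Wdr38 and Tlcd1 themselves had means of at most 2.60 FPKM. Ribosomal protein pseudogenes as a group had a median log2 difference of 0.29 in crypts (76 of 98 higher) and 0.14 in tumors (65 of 99; 0.21 without control library 1, 0.08 without control library 3).

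Related genes were described in the same way, and their medians depend on the scaling, for some lists more than that of all tested genes. Under quantile normalization in tumors, the median of translation factors went from 0.01 to -0.16, and that of all tested genes from 0.01 to -0.01. Translation factors and other messages of the pyrimidine class were all higher in knockout crypts, 14 of 14 with a median of 0.19 (0.31 without control library 1, 0.07 without control library 3, 0.13 without knockout library 2 and 0.30 without knockout library 3). Of this list, 9 genes were matched to an annotated start, and 3 of these (33.3%) carried a run by the rule above. In tumors 8 of 14 were higher, with a median of 0.01 (-0.03 without knockout library 3, 0.08 without knockout library 2, and -0.04 to -0.16 under the scalings). Pabpc1, the poly(A)-binding protein of this class, measured 317, 309 and 314 FPKM in control tumors and 274, 234 and 224 FPKM in knockout tumors. Each knockout was below each control, with a log2 difference of -0.37 (standard error 0.12, adjusted p = 0.301).

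Medians of other ribosome production genes lay near or below 0 in the values as deposited, were not tested against the members, and depended on the library and the scaling. Biogenesis factors had a median of -0.06 in crypts (11 of 29 higher; 0.15 without control library 1, -0.17 without control library 3, 0.01 without knockout library 3, and 0.08 or 0.10 under rescaling to summed FPKM) and -0.02 in tumors (12 of 29; -0.07 without knockout library 1, 0.03 without knockout library 2). RNA polymerase I genes had -0.03 in crypts (5 of 14; 0.05 without control library 1, -0.13 without control library 3, 0.04 without knockout library 3, and 0.10 or 0.11 under rescaling to summed FPKM) and -0.13 in tumors (5 of 14; -0.08 without control library 3). Genes of mTORC1 and regulators of ribosomal proteins had 0.03 in crypts (12 of 19; 0.08 without control library 1, -0.03 without control library 3, -0.01 without knockout library 3, and from -0.02 when scaled without the 50 highest genes to 0.16 and 0.17 with 17 of 19 higher under the summed FPKM scalings) and -0.01 in tumors (9 of 19; -0.12 with 3 of 19 higher when rescaled to summed FPKM). Targets of p53, which respond to unused ribosomal proteins, had 0.02 in crypts (6 of 11; -0.02 without control library 1, and from -0.05 under quantile normalization to 0.17 and 0.18 under the summed FPKM scalings) and 0.07 in tumors (7 of 12 higher; -0.04 and -0.03 under the summed FPKM scalings; 0.02 without control library 2).

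Other abundant families were mostly higher as deposited. Mitochondrial ribosomal proteins had 0.18 in crypts (68 of 77 higher; 0.12 without knockout library 2) and 0.16 in tumors (67 of 77; 0.24 without knockout library 2, 0.08 without knockout library 3). Nuclear genes of the respiratory chain had 0.25 in crypts (62 of 74; 0.15 without control library 2) and 0.28 in tumors (71 of 76; 0.15 without knockout library 3), and proteasome genes had 0.20 in crypts (37 of 37) and 0.08 in tumors (30 of 37; -0.01 without knockout library 3, 0.18 without knockout library 2, and -0.02 to -0.04 under the scalings that moved it below 0). Rescaled to summed FPKM, mitochondrial ribosomal proteins had 0.32 in crypts (76 of 77 higher) and 0.05 in tumors (50 of 77). Under that rescaling 61 of 76 respiratory chain and 13 of 37 proteasome genes were higher in tumors. Protein-coding genes of 100 to 1000 FPKM without the members had 0.16 in crypts (233 of 312 higher) and 0.19 in tumors (228 of 293), beside 0.12 and 0.22 for the members of that class. In crypts their libraries differed, since these other genes deviated by -0.18 in control library 1 and 0.11 in knockout library 3, where the members of that class deviated by 0.07 and -0.19. Of 10 to 100 FPKM in tumors, 11 of 11 members were higher with a median of 0.34, beside 0.06 for other genes. In crypts 9 of 13 members of that class were higher with a median of 0.06, beside 0.08 for other genes. Members were not tested against genes of like level. Proliferation genes had 0.11 in crypts (9 of 12; -0.02 without control library 3, 0.28 without control library 1) and -0.01 in tumors (6 of 12; -0.11 without knockout library 1, 0.08 without knockout library 2). Immediate early and heat shock genes, which can respond to handling, had -0.23 in crypts (3 of 12; 0.00 without control library 3, 0.01 without knockout library 1, -0.37 without control library 2, -0.42 without knockout library 2 and -0.11 without knockout library 3) and 0.26 in tumors (10 of 12; 0.16 without control library 1, 0.10 without control library 2, 0.45 without control library 3, 0.13 without knockout library 3).

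**Figure D5:**
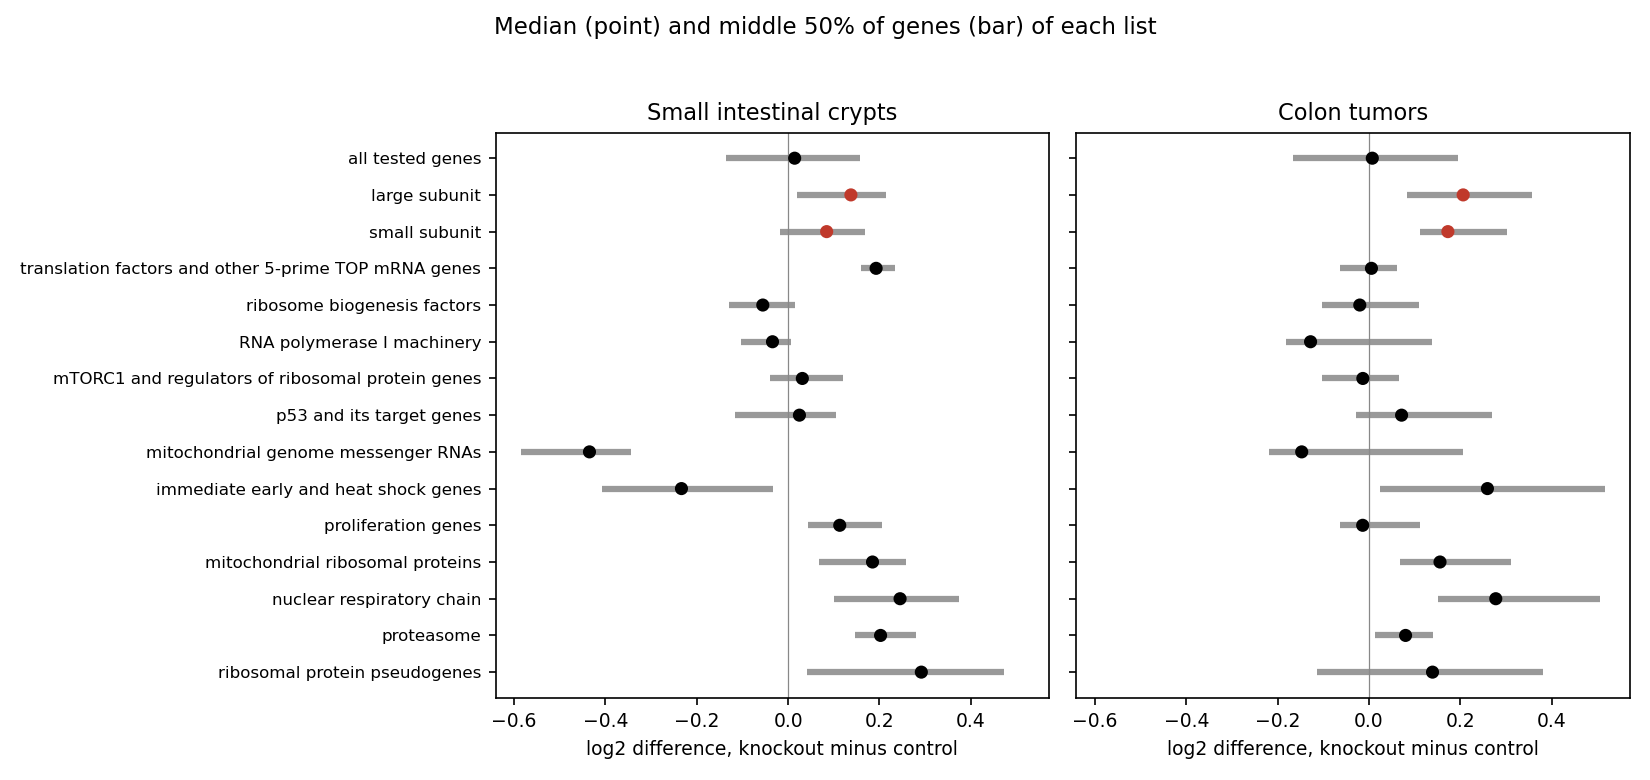
Median log2 difference of each gene list and the range of its middle 50%, in crypts and in tumors. The large subunit stands at 0.14 and 0.21 and the small subunit at 0.08 and 0.17, with the signs kept under the scalings tried.

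The RNA of the samples differed in composition, and the part this has in the result was not tested. Messages of the mitochondrial genome summed to 99832.7, 158309 and 118304 FPKM in control crypts and 87113, 79361.3 and 122511 FPKM in knockout crypts. Knockout libraries 1 and 2 were below all controls while knockout library 3, the knockout lowest in ribosomal proteins, was not. All 13 of these messages were lower in knockout crypts, with a median log2 difference of -0.43 (-0.24 without control library 2, -0.66 without knockout library 3, and 0.00 under quantile normalization), and in tumors the median was -0.15 (5 of 13 higher; -0.25 without control library 1, -0.06 without control library 2). Stem and Paneth cell markers in crypts (10 of 10 tested) summed to 18928.1, 26992.3 and 50975.4 FPKM in controls and 20683.4, 18076.4 and 18621.7 FPKM in knockouts. Control library 3, which was high in short ribosomal protein messages, was highest, mainly through the defensin Defa24 with 32836 FPKM. The lower markers did not rest on that library alone, since 7 of 10 were lower in knockouts with a median log2 difference of -0.43, and the median was -0.30 without control library 3. Of the stem cell markers only Lgr5 was lower (-0.40), while Olfm4 (0.18), Smoc2 (0.03) and Ascl2 (0.005) were not. The other lower markers were Defa17, Mmp7, Defa24, Lyz1, Pla2g2a and Itln1, from -0.83 to -0.38. Control crypt libraries 1 and 2 also held 38.5 and 37.8 FPKM of stomach genes such as the pepsinogen Pgc, where the others held at most 3.07 FPKM.

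Epithelial markers (10 of 10 tested in each tissue) had a median log2 difference of -0.00 in crypts, without a stable sign, and 0.43 in tumors, where all 10 were higher. Their sum in tumors, led by the keratin Krt8, was 4687, 4696 and 4044 FPKM in controls and 5605, 5557 and 5776 FPKM in knockouts. Each knockout tumor library was above each control, unlike the ribosomal proteins, for which knockout library 2 was low. Markers of colon epithelium (8 of 8 tested) summed to 475, 436 and 430.5 FPKM in controls and 769, 1159 and 961 FPKM in knockouts, led by the goblet cell gene Zg16. These groups did not overlap, with a median of 0.79. Fibroblast markers (7 of 7 tested) summed to 361, 228 and 219 FPKM in controls and 361, 473 and 378 FPKM in knockouts, led by Col1a1. Control library 1 and knockout library 1 were level, and the median was 0.58. Markers of B and plasma cells (5 of 7 tested) were higher for 5 of 5 in tumors, with overlapping groups. Their median was 0.36, and 0.09 to 0.86 with 1 library left out. Myeloid markers (8 of 8 tested) had a median of 0.01 with 5 higher and 3 lower, among these S100a8 at -0.98 and S100a9 at -1.01. The part of such cell types in the higher ribosomal protein messages of knockout tumors was not tested.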

How the data were processed

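Libraries of total RNA from 6 crypt and 6 tumor samples were assigned to groups from the sample labels. Per the processing notes of the submitters, reads were trimmed with cutadapt and aligned to mm10 with HISAT2, expression was computed with Cufflinks 2.2.1, and the authors tested with DESeq2. The paper instead names featureCounts for counting the reads of each gene. In each library, 100% of the values above 0, times gene length, lay within 0.1 of a whole multiple of a common step. Which of these tools gave the deposited values was not tested. The authors deposited FPKM, a table per tissue with each library apart, and these were used as they are. Depth was 14457896 to 16156712 fragments on genes per library, so that 1 fragment in a library is a small part of the value of each member but weighs more for Rpl24 and Rps10.

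Knockout and control were compared within each tissue by limma 3.58.1 (R 4.3.3), fitted to log2(FPKM + 0.5) with a variance trend and no covariates. Genes below a mean of 0.5 FPKM were left out, and p was adjusted by Benjamini-Hochberg with a threshold of 0.05. Differences are knockout minus control on this scale, which understates those of genes with low FPKM. The difference between tissues used all 12 libraries. Single genes were also compared by an exact two-sided permutation test. Lists are described by counts and medians only. The procedure was tested on simulated data. Tables and figures were made with Python 3.11.15, pandas 2.3.3, numpy 2.4.6 and matplotlib 3.10.9.

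Members and lists were chosen with earlier results of these data known. Genes were named by rule: in each comparison and subunit the 3 members with the smallest p per direction, the stalk genes, Rpsa and Rpl14, paralog pairs, genes of known regulation or disease, the highest and lowest members, and the leading genes of some lists. Some genes that this rule selects, and a list, are not reported here. Genes grouped by coding length, and Rpl38, Rps29, Rpl17 and Rps12 as examples, were chosen after their values had been seen. Alternatives tried were other pseudocounts, filters and scalings, no variance trend, robust moderation, protein-coding genes only, voom on recovered fragments, the replicate number as a block and each library left out. Protein identity of the paralogs was not computed, since no protein sequences were at hand.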

Additional observations from a re-analysis of the deposited data

How the results depend on the processing

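Of all tested genes, 0 passed adjustment in crypts, and 0 to 3 with 1 library left out, with 3 without control replicate 3 of the crypts. In tumors 0 passed, 1 without a variance trend, and 0 with any library left out. For the difference between tissues 0 passed, 1 with a pseudocount of 0.1 and 1 with the replicate number as a block, and 0 with any library left out. No ribosomal protein gene passed in any of these settings, and the cause of each move was not tested.

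The median difference of small subunit genes in crypts reversed, to -0.00723, without crypt_knockout replicate 2, and with 1 library left out it ran from -0.00723 to 0.20. The median difference of large subunit genes in crypts ran from 0.03 to 0.28, the median difference of large subunit genes in tumors from 0.10 to 0.37 and the median difference of small subunit genes in tumors from 0.07 to 0.32. Over the other settings the lowest values always came from quantile normalization, 0.04, 0.01, 0.04 and 0.01 for large and small subunit in crypts and then in tumors. The highest were 0.30 and 0.25 in crypts, rescaled to the summed FPKM of other genes, and 0.21 and 0.17 in tumors.

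With the replicate number as a block, the medians stayed at 0.14, 0.08, 0.21 and 0.17. Libraries of the same number are different mice, and their deviations over all tested genes had correlations of -0.05, -0.12 and 0.04 in crypts and 0.05, -0.09 and 0.05 in tumors, so they were not treated as pairs. Over the 80 members alone the correlations were 0.43, -0.30 and 0.24 in crypts and -0.03, 0.49 and 0.25 in tumors.

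Adding the fragments of pseudogene copies and leaving out members of up to 300 coding bases were chosen after the data had been seen, and gave subunit medians between 0.10 and 0.18. Limits are 3 mice per group, bulk tissue, 2 tables scaled apart, and a length dependence. For the short members this rested on control library 3 in crypts and on several libraries in tumors.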
